A study of Mus musculus with 15 samples.

Results

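The semaphorins, plexins and neuropilins are 3 gene families that together form a guidance system of growing and regenerating axons. Their members were taken as every protein-coding gene with a symbol of Sema and a digit, of Plxna1 to Plxna4, Plxnb1 to Plxnb3, Plxnc1 or Plxnd1, and of Nrp1 or Nrp2. Of the 55573 genes in the table, 31 met this rule, and the 28 with a mean of 10 or more counts over the 15 samples are described here, 17 semaphorins, 9 plexins and 2 neuropilins. All 28 passed the filter on low counts of the test used. Sema3a, Sema6b and Sema4c lay under the minimum with means of 1.27, 1.33 and 7.13 counts and did not pass that filter. The nearest member inside the minimum was Sema5b with a mean of 18.6 counts.

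The libraries came from the right trigeminal ganglion (TG) of 10-week-old male CD1 mice, an outbred strain, and no genetic change is named. The right cornea of each mouse had been injured by removing the epithelium and anterior stroma of its centre, and the eye was then treated 3 times a day until the ganglion on that side was taken on day 12. The 3 groups of 5 samples received vehicle, RvD6 (a resolvin made from docosahexaenoic acid, called the standard in the labels) or RvD6si (a stereoisomer of RvD6, called the isomer). The doses of the lipids in this experiment are not given in the sources used here, so a difference between the lipids is one between the preparations as applied. All groups, vehicle included, carried the injury, and no uninjured ganglion was among the samples.

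Semaphorins are extracellular or membrane-bound cues that bind plexins on the growth cone. Most secreted class 3 semaphorins cannot bind a plexin firmly by themselves and need a neuropilin as co-receptor, while membrane-bound classes bind plexins directly. Plexin signalling leads through small GTPases and collapsin response mediator proteins to the actin and microtubule skeleton. In the TG these genes can be expressed by sensory neurons, some of whose axons reach the cornea, and also by glia, fibroblasts and vessels. Counts of a whole ganglion do not assign a member to any of these cells.

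The tissue was checked on 14 sensory neuron genes, all of them detected, whose summed level was 13931 to 15393 CPM, that is counts scaled to the library size, in vehicle, 8096 to 13491 in RvD6 and 12471 to 15592 in RvD6si. Total counts per sample ranged from 4125962 to 9903396 with a median of 7756538. The vehicle totals were higher than the RvD6si totals (two-sided exact permutation test, n = 5 each, p = 0.0476). Some libraries, and the RvD6 group as a whole, stood apart by genes of other cells. The summed level of 10 bone marrow precursor genes was 75.7 to 443 CPM in vehicle, 500.4 to 1695 in RvD6 and 34.7 to 103 in 4 RvD6si samples, but 1246 in RvD6si sample 15, which also had the highest sum of 7 erythroid genes in its group (12017 CPM, the other 4 at 936 to 2613, vehicle at 2382 to 5066 and RvD6 at 5754 to 10621). Genes of myelinating Schwann cells summed to 14193 to 22208, 12248 to 18408 and 13171 to 21866 CPM in vehicle, RvD6 and RvD6si. Skeletal muscle genes summed to 49.9 to 195 CPM in vehicle, 116 to 2646 in RvD6 and 38.4 to 83.2 in RvD6si. All 10 marrow, 7 erythroid and 11 muscle genes tested were higher in RvD6 than in vehicle at an unadjusted p below 0.05 in edgeR (7.63% of all genes). Satellite glia genes summed to 8678 to 10532, 6776 to 8453 and 6250 to 9395 CPM in vehicle, RvD6 and RvD6si. Pituitary genes reached 3746 CPM in vehicle sample 3, with the other vehicle samples at 9.97 to 342. Their sums were 226 to 2301 in RvD6 and 19.9 to 657 in RvD6si.

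Levels of different genes were compared as reads per kilobase of exon, scaled to the library (RPKM). Sema3b, a secreted class 3 semaphorin that acts through neuropilins, was by far the most abundant member, with a mean of 95.0 ± 19.5 RPKM (SD, n = 15). It lay 12.1-fold above the next member, Nrp1, was higher in 15 of 15 samples with no overlap of the ranges, and made up 41.2 to 65.9% of the summed RPKM of the family in a sample.

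The co-receptor Nrp1 had a mean of 7.84 RPKM, followed by the transmembrane semaphorins Sema4f (7.00) and Sema5a (6.94), the lipid-anchored Sema7a (6.88), its receptor Plxnc1 (6.53) and the transmembrane Sema6d (6.06). Plexin-B3, a receptor for Sema5a, had 4.81 RPKM, Plxnb2 4.60, Nrp2 4.21, Sema4d 3.95 and Plxnd1 3.46. The 4 class A plexins, which pair with neuropilins to bind class 3 semaphorins, lay between 1.92 (Plxna1) and 2.64 RPKM (Plxna2). Plxna1 shared 10.7% of its exonic bases with another gene, where the default setting of featureCounts assigns a read to neither gene, so its level is less certain. The lowest member was Sema5b with 0.356 RPKM. From Nrp1 downwards every member overlapped its neighbour in this order. Sema3a, the classical repellent of sensory axons, had 19 reads over all 15 samples and was at 0 in 12 of them.

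**Figure D1:**
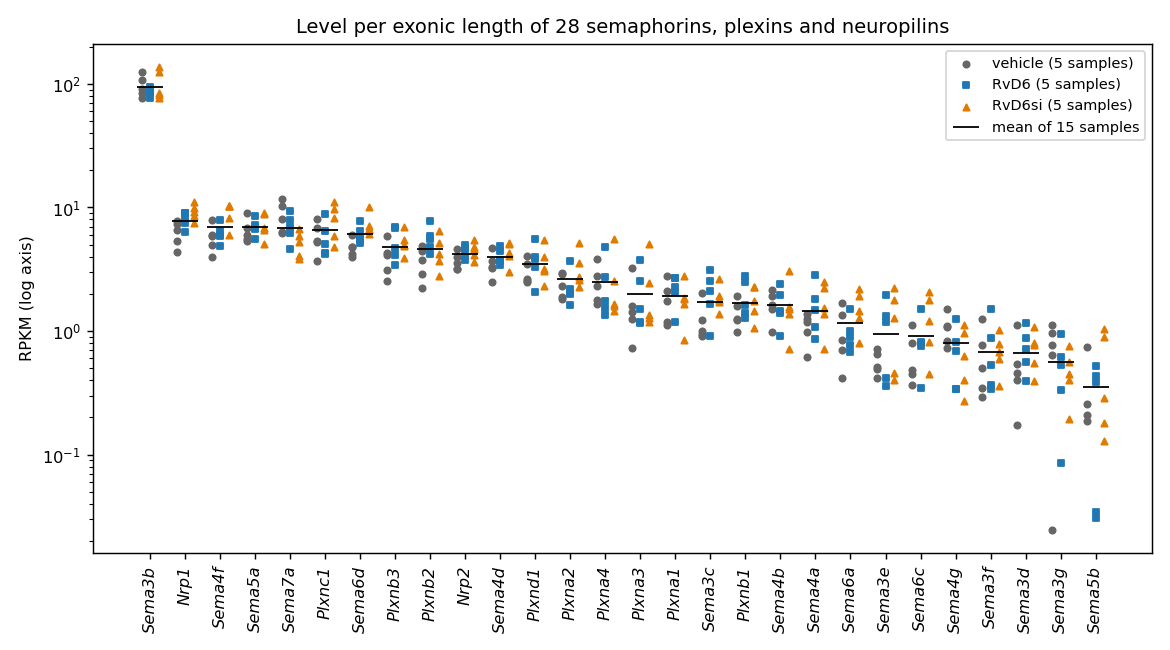
RPKM on a log axis for the 28 members in order of their mean over 15 samples, with 1 point per sample (circles vehicle, squares RvD6, triangles RvD6si) and a black bar for the mean. Sema3b lies at 76.4 to 137 RPKM, above every other member in every sample, and the other members descend without a gap. Samples at 0 are not drawn (Sema5b in 1 vehicle sample).

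The spread between samples differed among members. The biological coefficient of variation fitted by edgeR was lowest for Nrp2 (18.4%), Sema6d (19.7%), Nrp1 (19.7%) and Sema3b (20.2%), and highest for Sema5b (95.4%), Sema3g (71.9%), Sema3f (55.5%) and Sema3e (54.0%). The median standard error of a log2 fold change against vehicle was 0.30 for each lipid.

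Each lipid was first set against vehicle. For RvD6si, 25 of the 28 members had a log2 fold change above 0, where 51.2% of the 16567 genes tested did. The median member was 0.37 higher on the log2 scale against 0.02 for all genes. The members share the same libraries, so these are not 28 independent observations. The median of their centred log2 CPM in a sample was -0.45 to 0.12 in vehicle, -0.25 to 0.21 in RvD6 and -0.22 to 0.39 in RvD6si. These ranges overlapped, and the SD between replicates was 0.24. No member reached an adjusted p below 0.05 in the quasi-likelihood test of edgeR, where 0.670% of all genes did. At an unadjusted p below 0.05 there were 4 members higher (Sema6d, Nrp1, Sema4f and Sema3e), or 14.3% where 8.69% of all genes were, and 1 lower (Sema7a), or 3.57% where 7.30% of all genes were. All 11 receptors and co-receptors had a positive log2 fold change, from 0.00 for Plxna1 to 0.55 for Nrp1, as did 14 of 17 semaphorins. The number of higher members moved with single samples, to 8 when vehicle sample 1 was left out and to 7 without RvD6si sample 13. The share of all genes in those fits is not given here, so these numbers are not set against the 8.69%.

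These values stood beside a difference in gene length. Members had a median exonic length of 7800 bases against 3968 for all genes tested, and the 9609 genes within the members' length range had a median log2 fold change of 0.14 for RvD6si. The slope of log2 expression on log2 exonic length was 0.402 ± 0.058 (SD, n = 5) in RvD6si and 0.302 ± 0.057 in vehicle (two-sided exact permutation p = 0.0317). After a fit with the length trend of every sample taken out, the median member was 0.22 higher and 20 of 28 lay above 0. Sema6d, Nrp1, Sema4f and Sema7a kept an unadjusted p below 0.05 (edgeR adjusted p = 0.131, 0.242, 0.209 and 0.198), and Sema3e did not, although its log2 fold change was still 0.95 against 1.13 with the trend left in (adjusted p = 0.385). Without RvD6si sample 15, rich in marrow and erythroid genes, the median was 0.41 with 24 of 28 above 0. The share of all genes above 0 is not given here for either fit, so 20 and 24 of 28 are descriptions only. In bulk tissue, fewer cells of a type and less RNA per cell cannot be told apart, and this holds for every level below.

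**Figure D2:**
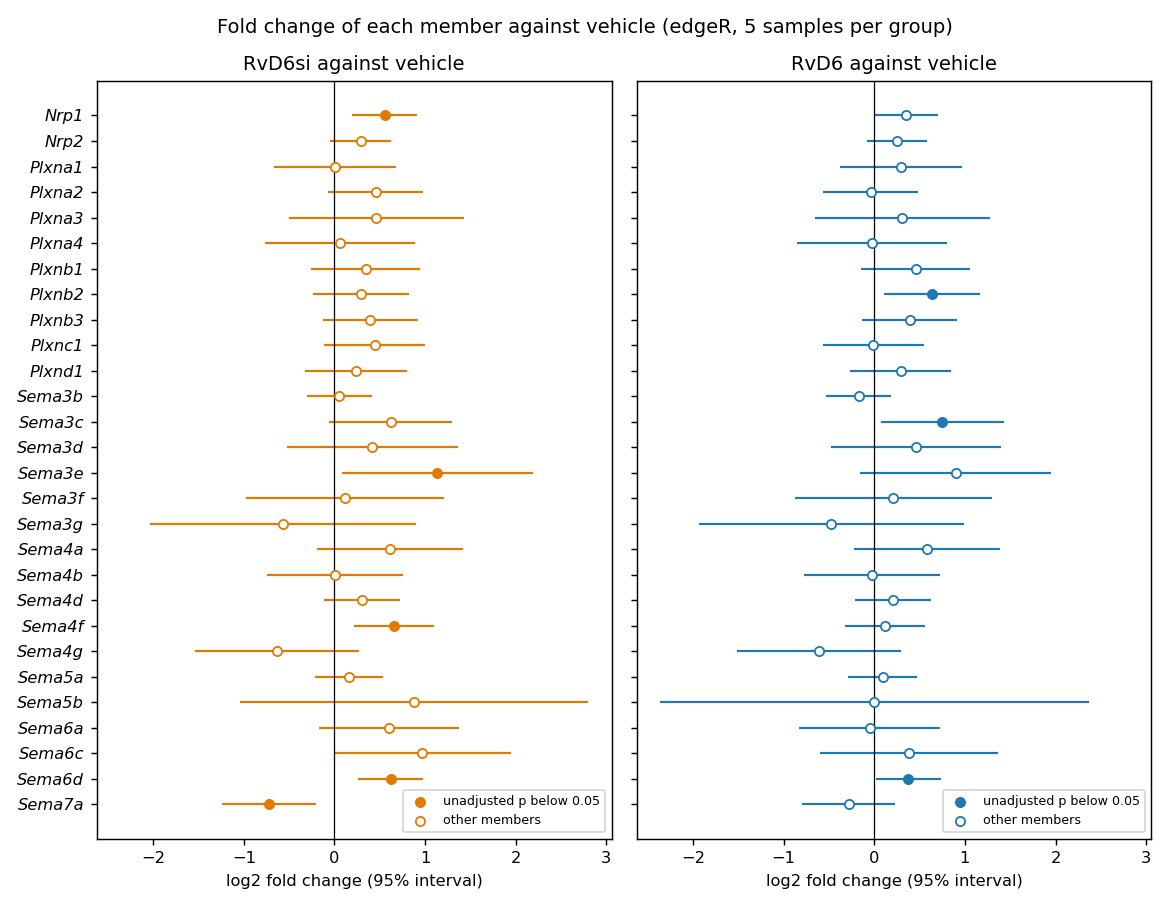
Log2 fold change against vehicle (horizontal axis) of the 28 members for RvD6si (left) and RvD6 (right), with 95% intervals from edgeR, 5 samples per group. Filled points have an unadjusted p below 0.05. For RvD6si 25 points lie right of 0 and for RvD6 19, both panels share the vehicle samples, and no member passes the adjusted threshold.

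Of the neuropilins, Nrp1 is the co-receptor of several class 3 semaphorins and also binds vascular endothelial growth factors (VEGFs). Its normalized counts, that is counts divided by the size factor of the sample, were 544, 513, 376, 463 and 307 in vehicle samples, 639, 648, 569, 532 and 450.0 in RvD6 samples and 698, 534, 774, 639 and 601 in RvD6si samples, here and below in the order of replicates 1 to 5, 6 to 10 and 11 to 15. Every RvD6si sample but 1 (sample 12) lay above every vehicle sample, and the groups overlapped only there. The group means were 441 ± 98.1 (SD, n = 5), 568 ± 81.8 and 649 ± 91.8 in vehicle, RvD6 and RvD6si. Against vehicle the log2 fold change was 0.55 ± 0.17 (SE) for RvD6si (edgeR adjusted p = 0.115) and 0.35 ± 0.17 for RvD6 (adjusted p = 0.379). With the length trend removed these were 0.44 and 0.23. Nrp1 was on chromosome 8 (GRCm38, 128358604 to 128503363, plus strand), and 0.818% of its exonic bases were shared with another gene.

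Nrp2, the co-receptor preferred by Sema3f and also a partner of Vegfc, had normalized counts of 270.4, 302, 269.6, 393 and 340.5 in vehicle samples, 421, 406, 346, 322 and 395 in RvD6 samples and 393, 470.5, 307, 352 and 408 in RvD6si samples. The 3 groups overlapped, with means of 315 ± 52.2, 378 ± 41.9 and 386 ± 61.5. Its log2 fold change was 0.29 ± 0.16 for RvD6si (edgeR adjusted p = 0.389) and 0.25 ± 0.16 for RvD6 (adjusted p = 0.513), and both were smaller with the length trend removed, at 0.13 and 0.09. Endothelial markers summed to 233 to 328 CPM in vehicle, 231 to 288 in RvD6 and 217 to 238 in RvD6si (medians 267, 272 and 234). Of the 9 tested, 2 were higher and 1 lower in RvD6 at an unadjusted p below 0.05, where 7.63% and 5.99% of all genes were. In RvD6si 0 were higher and 1 lower, where 8.69% and 7.30% of all genes were. The median marker had a log2 fold change of -0.10 in RvD6 and -0.11 in RvD6si. The 2 higher in RvD6 were the VEGF receptor genes Kdr and Flt1, named after their values were seen. Their log2 fold changes were 0.71 ± 0.28 and 0.43 ± 0.20 in RvD6 (edgeR adjusted p = 0.295 and 0.345). In RvD6si they were 0.27 ± 0.28 and 0.23 ± 0.20 (edgeR adjusted p = 0.694 and 0.609). The part of vessel cells in the neuropilin values was not tested.

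Among the ligands, Sema6d is a transmembrane class 6 semaphorin that binds plexin-A1. Its normalized counts were 359, 456, 318, 303 and 361 in vehicle samples, 393, 504, 423, 596 and 438 in RvD6 samples and 543, 768, 504, 497 and 462 in RvD6si samples. It was the only member whose RvD6si samples all lay above all vehicle samples, although the nearest were close (462 and 456), a pattern shown in this direction by 2.48% of all genes (4.88% in either direction). The log2 fold change was 0.62 ± 0.17 for RvD6si, the smallest p of the family (edgeR adjusted p = 0.0866), and 0.37 ± 0.17 for RvD6 (adjusted p = 0.345), or 0.48 and 0.23 with the length trend removed. Sample 12 was high for Sema6d, and without it the value for RvD6si was 0.48 with an edgeR adjusted p of 0.138.

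Sema4f, a transmembrane class 4 semaphorin of the nervous system, had normalized counts of 223, 303, 188, 225 and 149.7 in vehicle samples, 188, 252, 224, 229 and 301 in RvD6 samples and 394, 397, 388, 226 and 314 in RvD6si samples. In RvD6si 4 samples lay above all 5 vehicle samples and sample 14 lay among them. The log2 fold change was 0.65 ± 0.21 for RvD6si (edgeR adjusted p = 0.126) and 0.12 ± 0.21 for RvD6 (adjusted p = 0.851), the latter 0.05 with the length trend removed. Sema4f was also the only member with an unadjusted p below 0.05 between the 2 lipids.

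Sema7a is held in the membrane by a lipid anchor and promotes axon growth through integrins containing beta 1, and also binds plexin-C1. It was the only member with the opposite direction at an unadjusted p below 0.05. Its normalized counts were 244, 150.4, 148, 189 and 275 in vehicle samples, 187, 149.6, 164, 110.3 and 222 in RvD6 samples and 141, 161, 94.9, 90.0 and 125 in RvD6si samples. All RvD6si samples but sample 12 lay below every vehicle sample. The log2 fold change was -0.72 ± 0.25 for RvD6si (edgeR adjusted p = 0.149) and -0.28 ± 0.24 for RvD6 (adjusted p = 0.647). With the shortest exons of all members (3298 bases), it lay below 0 also after removal of the length trend (-0.71).

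**Figure D3:**
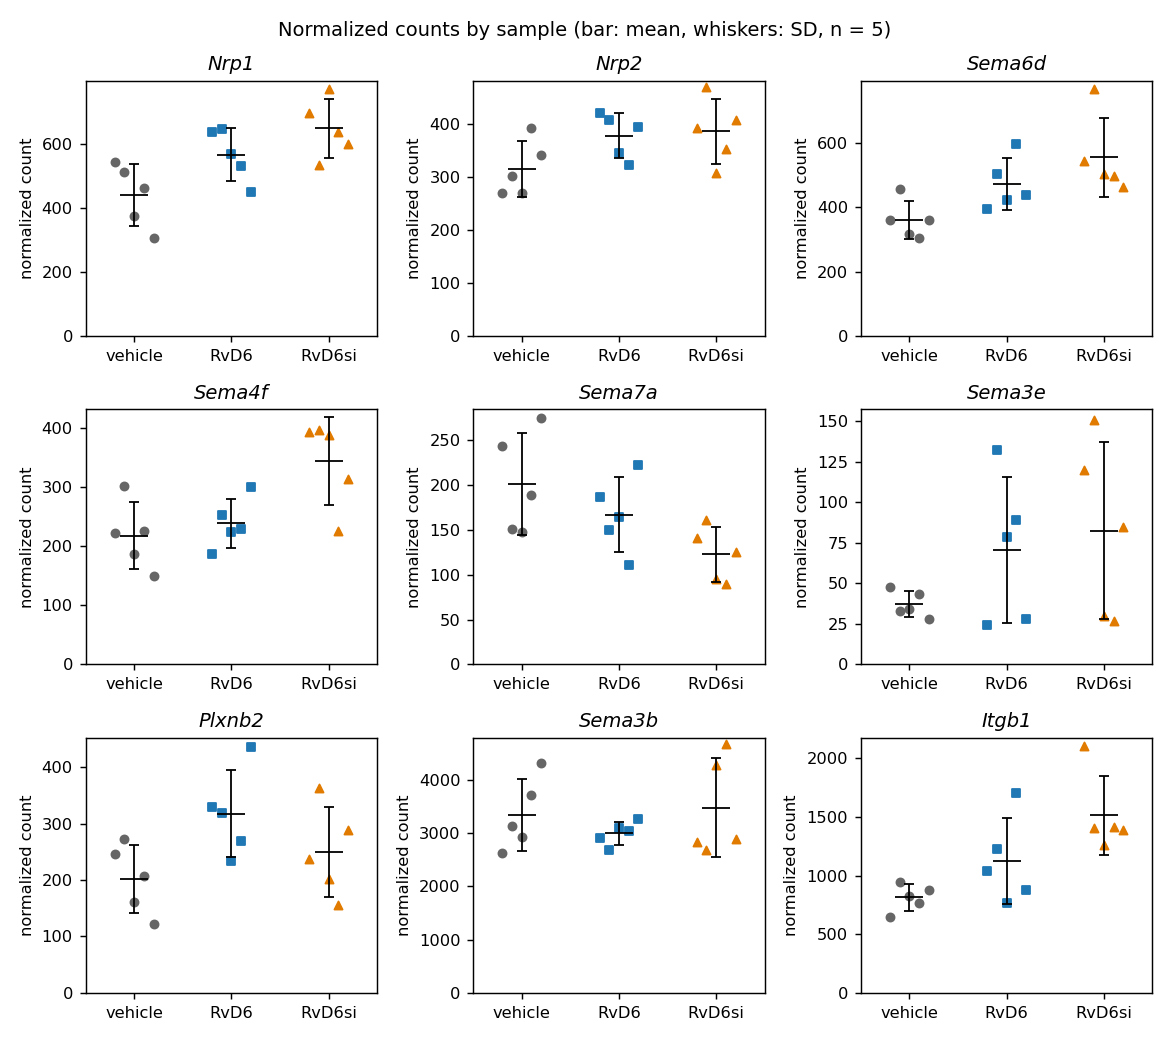
Normalized counts (vertical axes from 0) of 8 members and of Itgb1 in each sample, with 5 samples per group, a bar for the mean and whiskers for the SD. Sema6d and Itgb1 have all RvD6si samples above all vehicle samples, Sema7a has its lowest values in RvD6si, and Sema3b shows groups that overlap fully.

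Of the semaphorins, these 3 had the smallest unadjusted p in edgeR for RvD6si against vehicle, where Nrp1 and Sema3e were also below 0.05. The stretches before their start sites are given for these 3 alone, so that their promoters can be compared. Each is the 250 bases upstream of the RefSeq start (GRCm38.p6), written 5′ to 3′ on the strand of the gene, with capitals for the GC box GGGCGG (or its reverse complement) and the CCAAT box CCAAT (or ATTGG). They are chr2:124089719-124089968 (plus strand) for Sema6d, chr6:82939770-82940019 (minus strand) for Sema4f and chr9:57939862-57940111 (plus strand) for Sema7a.
Sema6d: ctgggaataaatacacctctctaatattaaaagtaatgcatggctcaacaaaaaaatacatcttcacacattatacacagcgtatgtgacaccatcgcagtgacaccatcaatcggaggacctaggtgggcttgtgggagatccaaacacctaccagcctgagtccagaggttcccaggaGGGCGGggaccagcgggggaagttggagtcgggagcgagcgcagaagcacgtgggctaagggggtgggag
Sema4f: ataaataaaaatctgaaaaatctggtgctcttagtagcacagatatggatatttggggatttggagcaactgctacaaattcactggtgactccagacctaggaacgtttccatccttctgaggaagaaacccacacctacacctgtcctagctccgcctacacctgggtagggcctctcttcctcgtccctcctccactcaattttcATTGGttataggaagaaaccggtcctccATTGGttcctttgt
Sema7a: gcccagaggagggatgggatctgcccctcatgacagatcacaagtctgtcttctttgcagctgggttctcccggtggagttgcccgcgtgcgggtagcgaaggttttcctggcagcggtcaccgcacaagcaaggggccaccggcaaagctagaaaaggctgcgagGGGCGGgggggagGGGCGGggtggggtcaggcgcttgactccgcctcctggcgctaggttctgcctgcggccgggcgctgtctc
The window of Sema6d held 1 GC box and that of Sema7a held 2, while that of Sema4f held none but 2 CCAAT boxes close to the start. Their GC contents were 52.4%, 66.4% and 46.0%. None held TATAAA on either strand. Of the 23 members with an entry in the promoter table, 18 (78.3%) had at least 1 GC box, 4 (17.4%) a CCAAT box and 0 TATAAA, where 32.7%, 33.8% and 12.4% of all 32851 windows of this length held them. These windows cover all genes of the table, coding or not, and a match of letters is not a binding site.

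Other class 3 ligands differed widely between samples. Sema3e binds plexin-D1 without a neuropilin, and its normalized counts were 47.6, 32.9, 34.5, 43.3 and 28.0 in vehicle samples, 24.2, 132, 78.5, 89.2 and 28.2 in RvD6 samples and 119.7, 151, 30.1, 26.9 and 84.5 in RvD6si samples. In each lipid group 3 samples lay above all vehicle samples and 2 below the middle of them. Its log2 fold change was the largest of the family for both lipids, 1.13 ± 0.50 for RvD6si (edgeR adjusted p = 0.272) and 0.90 ± 0.50 for RvD6 (adjusted p = 0.452). Without RvD6si sample 12 the value for RvD6si was 0.80 (edgeR adjusted p = 0.479).

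Sema3c binds both neuropilins. Its normalized counts were 104, 62.3, 46.5, 51.2 and 48.5 in vehicle samples, 46.9, 86.5, 108, 131 and 161 in RvD6 samples and 136, 71.1, 97.7, 87.9 and 91.0 in RvD6si samples. Vehicle sample 1 lay well above the other 4 vehicle samples, which were below all RvD6si samples. The log2 fold change was 0.75 ± 0.32 for RvD6 (edgeR adjusted p = 0.321) and 0.62 ± 0.32 for RvD6si (adjusted p = 0.365). Without that vehicle sample the edgeR adjusted p was 0.210 and 0.202 for RvD6 and RvD6si.

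For the dominant ligand, Sema3b, normalized counts were 2629, 3135, 2914, 3703 and 4304 in vehicle samples, 2907, 2682, 3092, 3028 and 3264 in RvD6 samples and 2837, 2681, 4266, 4672 and 2882 in RvD6si samples. The groups overlapped throughout. The 95% interval of its log2 fold change ran from -0.30 to 0.41 for RvD6si and from -0.53 to 0.19 for RvD6. For RvD6si the value itself was 0.05, and -0.06 with the length trend removed.

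Sema5a, a transmembrane semaphorin with thrombospondin repeats, had group means of 877 ± 198, 945 ± 155 and 983 ± 234 normalized counts in vehicle, RvD6 and RvD6si (SD, n = 5), with log2 fold changes of 0.16 ± 0.18 for RvD6si and 0.09 ± 0.18 for RvD6, or 0.03 and -0.08 with the length trend removed. The remaining semaphorins had edgeR adjusted p-values of 0.318 or more for RvD6si. By class, 5 of 6 class 3, 4 of 5 class 4, 2 of 2 class 5 and 3 of 3 class 6 semaphorins had a log2 fold change above 0 for RvD6si. The exceptions besides Sema7a were Sema3g (-0.57 ± 0.70) and Sema4g (-0.63 ± 0.43). Both were also below 0 for RvD6.

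The plexins showed small differences. For RvD6si the 9 log2 fold changes ran from 0.00 to 0.46 with a median of 0.35, and none had an unadjusted p below 0.05. Plxnc1, the receptor of Sema7a, had normalized counts of 411, 482, 324, 312 and 219.6 in vehicle samples, 257, 548, 252, 390.4 and 307 in RvD6 samples and 675, 587, 285, 352 and 496 in RvD6si samples. These groups overlapped, and the log2 fold change was 0.44 ± 0.26 for RvD6si and -0.01 ± 0.26 for RvD6 (edgeR adjusted p = 0.431 and 0.989). Plxnb3 had log2 fold changes of 0.40 ± 0.25 for RvD6si and 0.39 ± 0.25 for RvD6 (edgeR adjusted p = 0.459 and 0.517). With the length trend removed the RvD6si values were 0.30 for Plxnc1 and 0.26 for Plxnb3, and the RvD6 value of Plxnc1 was -0.15.

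Against vehicle, RvD6 gave 19 of 28 members above 0 (52.2% of all genes), a median of 0.23 against 0.02 for all genes and 0.12 for genes in the same length range, and 3 members higher at an unadjusted p below 0.05. These were Plxnb2, Sema3c and Sema6d, 10.7% of the members where 7.63% of all genes were higher, and 0 members were lower where 5.99% of all genes were. With the length trend removed the median was 0.11. No member was higher at that p without vehicle sample 3 or vehicle sample 5, 1 was without vehicle sample 4 or RvD6 sample 9, and 5 were without vehicle sample 2. Without RvD6 sample 7, 1 member was lower. These counts show only how single samples moved them, since the shares of all genes in the same fits are not given here. No member and 0% of all genes passed the adjusted threshold in edgeR.

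Plxnb2, a class B plexin that receives class 4 semaphorins, led this comparison. Its normalized counts were 246, 272, 160.5, 208 and 123 in vehicle samples, 329.9, 318, 234, 269 and 436 in RvD6 samples and 237, 363, 203, 155 and 288 in RvD6si samples. In RvD6, 3 samples lay above all vehicle samples, and samples 8 and 9 fell within the vehicle range. The log2 fold change was 0.64 ± 0.25 for RvD6 (edgeR adjusted p = 0.285) and 0.30 ± 0.25 for RvD6si (adjusted p = 0.611). With the length trend removed the RvD6si value was 0.16. In the RvD6 group, fibroblast markers summed to 1549 to 2496 CPM against 1504 to 1790 in vehicle, beside the marrow, erythroid and muscle sums given above. The part of these cells in the RvD6 values was not tested.

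**Figure D4:**
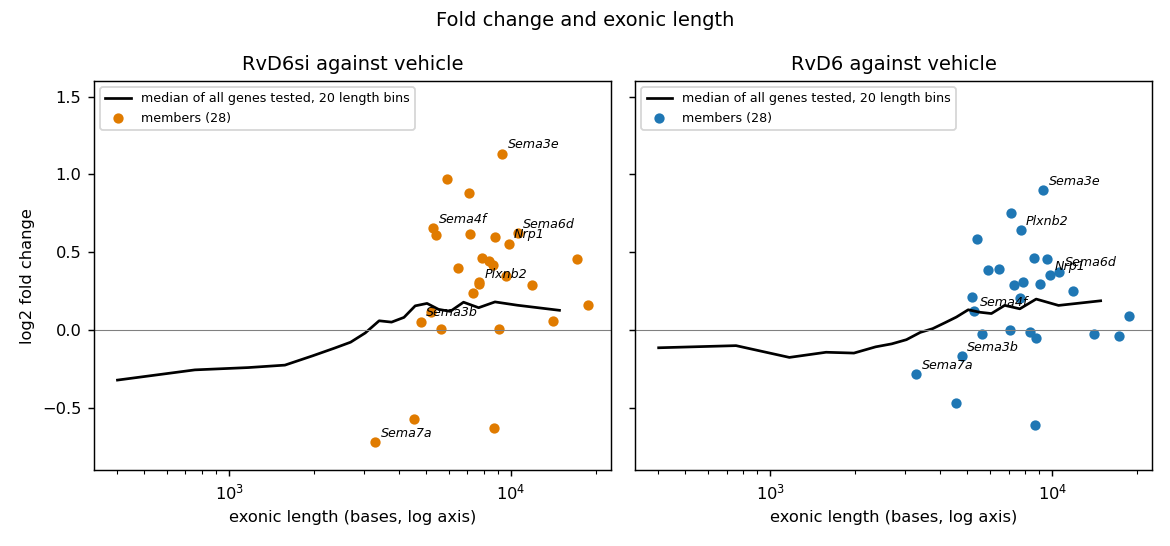
Log2 fold change against vehicle (vertical axis) and exonic length in bases (log axis) of the 28 members for RvD6si (left) and RvD6 (right), each point 1 gene. The black line joins the medians of all genes tested in 20 bins of length. It lies below 0 for the shortest genes and reaches 0.17 (RvD6si) and 0.13 (RvD6) at a median of 5032 bases. In longer bins it stays at 0.12 to 0.18 for RvD6si and 0.11 to 0.20 for RvD6. With the length trend removed 20 of 28 members lie above 0 for RvD6si, a count not set against all genes, while Sema7a, the shortest, lies below.

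The 2 lipids are stereoisomers, so they were also compared with each other. RvD6si and RvD6 differed in no member at an adjusted p below 0.05 (0.235% of all genes in edgeR), and 1 member was higher and 0 lower in RvD6si at an unadjusted p below 0.05, where 4.18% and 4.64% of all genes were. That member was Sema4f, which was 0.53 ± 0.21 higher on the log2 scale in RvD6si (edgeR adjusted p = 0.442, 95% interval 0.10 to 0.97). Leaving out RvD6 sample 7 or RvD6si sample 13 gave 3 higher members, and leaving out RvD6 sample 10 or RvD6si sample 14 gave 2, while 1 was lower without RvD6 sample 9 or RvD6si sample 12. The shares of all genes in those fits are not given here, so these counts show only how single samples moved them. Of the 28 members 18 lay above 0, where 49.5% of all genes did, and the median difference was 0.05, or 0.25 without RvD6 sample 7 and 0.11 without RvD6si sample 13. The intervals leave room for differences, with -0.15 to 0.56 for Nrp1, -0.11 to 0.60 for Sema6d, -0.95 to 0.08 for Sema7a and -0.87 to 0.18 for Plxnb2. No member had groups that did not overlap, a pattern found in 1.74% of all genes for this pair and in 3.72% for RvD6 against vehicle, where again no member showed it.

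DESeq2, the tool the authors used, called more genes than edgeR in these data. With all 15 samples it called 8.13% of the 11321 genes to which it gave an adjusted p for RvD6si against vehicle, among them 3 of 23 such members. These were Sema6d (DESeq2 adjusted p = 0.0117), Nrp1 (0.0250) and Sema4f (0.0340). For RvD6 against vehicle and between the lipids it called 0 members, where it called 1.92% and 0.936% of genes.

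Of 56 other genes of the pathway, surface partners, intracellular effectors and processing proteases, 52 were tested. For RvD6si against vehicle 2 passed the adjusted threshold in edgeR, both partners at the cell surface, and 7 were higher and 4 lower at an unadjusted p below 0.05 (13.5% and 7.69%, against 8.69% and 7.30% of all genes). Integrin beta 1, Itgb1, part of the receptor of Sema7a, had normalized counts of 650.3, 948, 826, 764 and 880.0 in vehicle samples, 1038, 1226, 771, 1703 and 874 in RvD6 samples and 2101, 1403, 1264, 1410.2 and 1385 in RvD6si samples. All RvD6si samples lay above all vehicle samples, as for 2.48% of all genes, and the RvD6 samples overlapped both. It rose by 0.89 ± 0.20 on the log2 scale (edgeR adjusted p = 0.0430), while its ligand Sema7a had a log2 fold change of -0.72 ± 0.25 in the same comparison. For RvD6 the value was 0.45 ± 0.20 (adjusted p = 0.325).

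Vegfc, a lymphatic growth factor that binds Nrp2, had normalized counts of 31.0, 25.8, 8.83, 14.8 and 30.4 in vehicle samples, 32.0, 0, 1.40, 22.3 and 18.1 in RvD6 samples and 0, 0, 0, 1.03 and 1.63 in RvD6si samples. It fell in RvD6si (edgeR adjusted p = 0.0430), where at most 1 read was counted per sample, and it was also at 0 or 1 read in 2 RvD6 samples. The highest vehicle sample held 43 reads, so the gene is sparse and no fold is given. For RvD6si against vehicle DESeq2 gave Itgb1 an adjusted p of 0.00120 with all samples and 2.03e-05 with the 2 groups alone. It gave Vegfc none with either. With any single sample left out, Itgb1 stayed higher, by 0.75 to 0.94 on the log2 scale, and Vegfc stayed lower, but the adjusted p of edgeR often missed the threshold. Itgb1 stayed below an adjusted p of 0.05 only when RvD6 sample 8, 9 or 10 or RvD6si sample 12 was left out, 4 of 15 such fits (edgeR adjusted p 0.0165 to 0.145), and Vegfc only when RvD6 sample 7, 8 or 9 was, 3 of 15 (0.0305 to 0.145). The number of genes called over the whole table fell too, from 111 to between 6 and 13 when a vehicle sample was left out and to 0 without RvD6si sample 11. With the length trend removed Itgb1 was 0.81 higher against 0.89 with the trend left in, Vegfc was again lower, and the edgeR adjusted p was 0.0605 and 0.0570, where 63 genes were called in all.

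Downstream of the receptors, 28 effectors were tested. For RvD6si 2 were higher and 2 lower at an unadjusted p below 0.05 (7.14% each, where 8.69% and 7.30% of all genes were), and for RvD6 2 were higher and 5 lower (7.14% and 17.9%, where 7.63% and 5.99% of all genes were). In RvD6 the pathway genes with the smallest p were Adam10, a protease that sheds surface proteins (0.60 ± 0.18, edgeR adjusted p = 0.186), Gipc1, an adaptor of the neuropilin-1 tail (-0.44 ± 0.16, adjusted p = 0.241), and Cfl1, cofilin, which severs actin filaments (0.81 ± 0.30, adjusted p = 0.254). In DESeq2 the adjusted p of Adam10 was 0.0645 with all samples and 0.0239 with the 2 groups alone. Those of Gipc1 and Cfl1 were above 0.05 in both. All 5 RvD6 samples lay above all vehicle samples for Adam10, where 3.72% of all genes had groups that did not overlap. They lay below all vehicle samples for the collapsin response mediator Dpysl3, named after its values were seen (-0.52 ± 0.19, edgeR adjusted p = 0.255). For Cfl1 the RvD6 samples overlapped vehicle, and without RvD6 sample 9 its value was 0.37. Cfl1 was not among the genes chosen by the rule for RvD6si and is named there after its values were seen. All 5 RvD6si samples lay above all vehicle samples, with a log2 fold change of 1.17 ± 0.30 (edgeR adjusted p = 0.0685, DESeq2 adjusted p = 0.00512). That pattern was shown in this direction by 2.48% of all genes. Mst1r, a surface partner named likewise, also showed it (1.55 ± 0.77, edgeR adjusted p = 0.334). Its means were low, 13.6 ± 6.11 normalized counts in vehicle and 40.2 ± 19.6 in RvD6si, and DESeq2 gave it no adjusted p. Also named after their values were seen, the protease Mmp14 was higher (0.92 ± 0.27, edgeR adjusted p = 0.0979) and the surface partner Pgf lower (-0.79 ± 0.28, adjusted p = 0.173). Their DESeq2 adjusted p was 0.0151 and 0.0668 with all samples, and 0.0314 and 0.0464 with the 2 groups alone. Between the lipids the Cfl1 difference was 0.36 ± 0.29 (edgeR adjusted p = 0.773). Over the whole pathway, 7 genes were higher and 5 lower at that p for RvD6 (13.5% and 9.62%, against 7.63% and 5.99% of all genes).

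Between the lipids, Vegfc (edgeR adjusted p = 0.137) and the collapsin response mediators Dpysl2 (0.40 ± 0.14, adjusted p = 0.353) and Crmp1 (0.46 ± 0.18, adjusted p = 0.443) had the smallest p. DESeq2 gave Vegfc an adjusted p of 0.0128 in this pair with all samples and 0.0646 with the 2 groups alone. Those of Dpysl2 and Crmp1 were above 0.05 in both. Dpysl2 and Crmp1 are neuronal phosphoproteins that relay semaphorin signals to microtubules. Their means were 4399 ± 566, 3607 ± 461 and 4733 ± 841 normalized counts for Dpysl2, and 613 ± 112, 445 ± 72.4 and 608 ± 144 for Crmp1, in vehicle, RvD6 and RvD6si. Both were lowest in RvD6. At an unadjusted p below 0.05 in edgeR, 7 of 14 sensory neuron markers were also lower there than in vehicle (5.99% of all genes). The part of neuronal share in these values was not tested.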

How the data were processed

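Gene counts were made by the authors from Smart-seq2 libraries of 1 TG sample each, in which RNA is copied from its poly(A) tail and the strand is not kept. They aligned reads with Rsubread to GRCm38 and counted them on the exons of GENCODE release 22 genes with featureCounts (Subread 1.6.5 in the submitters' processing notes, version 1.5.0-p1 in the file header). The deposited values are raw counts with exonic lengths. Symbols came from GENCODE release 21 (55480 of 55573 genes), and promoters from RefSeq. The members and gene lists were chosen with earlier results of these data known.

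Counts were tested in R 4.3.3 with edgeR 4.0.16 (quasi-likelihood F test, TMM, 3 groups of 5 in 1 fit, a minimum count of 10 and total of 15 in its filter), with Benjamini-Hochberg adjustment over 16567 genes and a threshold of 0.05. Normalized counts used the size factors of DESeq2 1.42.0. Alternatives were DESeq2, edgeR on 2 groups, RLE normalization, other filters, removal of trends on length or GC content (lowess, span 0.3), thinned counts and each sample left out. Steps were checked on simulated counts. Exact permutation tests used SciPy 1.17.1. Members given in full were the neuropilins, those with the smallest unadjusted p below 0.05 (up to 6 per comparison), those whose groups did not overlap, and the 3 semaphorins and 2 plexins highest in RPKM. Of the pathway lists, genes past the threshold were named, otherwise the 3 with the smallest p.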

Additional observations from a re-analysis of the deposited data

Results flagged for a closer look

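In 84 groups of 5 samples, 4 held a normalized count far from the other 4 by Dixon's test, about what chance gives at 1 group in 20. RvD6si sample 12 had 573 for Plxna4, the other RvD6si samples lying between 146 and 262, and 768 for Sema6d, the others lying between 462 and 543. RvD6 sample 7 had 464 for Plxna2, with the others at 201 to 272. Vehicle sample 1 had 104 for Sema3c, with the others at 46.5 to 62.3.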

How the results depend on the processing

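The spread between samples holds both animals and library preparation, which cannot be told apart. With every library thinned to the lowest total, the median of the members was 0.36 for RvD6si against vehicle and 0 members passed the adjusted threshold. That median lay between 0.22 and 0.41 over the 9 other settings and between 0.26 and 0.46 with single samples left out. No paired analysis was possible because the groups share no replicate numbers.

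For RvD6si against vehicle DESeq2 called 3 members with all samples and 3 with the 2 groups alone, against 0 in edgeR. With all samples it called 8.13% of the genes to which it gave an adjusted p, and edgeR called 0.670% of all genes. The cause was not tested. Where the share of all genes in a setting is not given, a count in this paragraph only describes that setting. Pathway genes past the adjusted threshold were 4 with DESeq2 on 2 groups (Itgb1, Cfl1, Mmp14 and Pgf) and 0 with the length trend removed. That removal also left 3 pathway genes higher at an unadjusted p for RvD6si and 3 for RvD6. For RvD6, DESeq2 on 2 groups called 1 pathway gene (Adam10), and lower pathway genes were 3 under RLE normalization and 3 with 10 counts in every sample. Between the lipids, 2 members were higher without a filter, 2 without the length trend and 2 with thinned counts. DESeq2 with all samples called 1 pathway gene there (Vegfc), where it called 0.936% of the genes with an adjusted p. EdgeR on 2 groups left 3 pathway genes higher and 0 lower, and 10 counts in every sample left 0 lower. 

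Among the members given in full, signs turned for 4 in the settings that kept all samples. Without the length trend, Sema3b was -0.062 for RvD6si and Sema5a -0.0763 for RvD6. Plxnc1 for RvD6 turned to 0.00553 and 0.000703 (DESeq2, all samples and 2 groups), 0.00501 (RLE), 0.0248 (10 counts) and 0.00604 (GC trend removed). Plxnb3 between the lipids turned to -0.00241 (DESeq2), -0.00256 (RLE), -0.0197 (10 counts), -0.0262 (length), -0.0117 (GC) and -0.00863 (thinned).

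In the 15 fits that dropped a single sample, members higher at an unadjusted p numbered 3 to 8 for RvD6si, 0 to 5 for RvD6 (0 without vehicle sample 3 or 5) and 1 to 3 between the lipids, and members lower 0 to 1 for RvD6 and 0 to 1 between the lipids. No member passed the adjusted threshold in any of these fits. Pathway genes past it were 0 to 3 for RvD6si and 0 to 1 between the lipids. Higher pathway genes ranged from 4 to 9, 3 to 8 and 2 to 6, and lower ones from 3 to 5 for RvD6 and 1 to 3 between the lipids. The shares of all genes in each fit are not given here, so these ranges are not read against a background. Log2 values ranged from -0.0795 to 0.168 for Sema3b (RvD6si), -0.225 to 0.130 for Plxnc1 (RvD6) and, between the lipids, -0.0385 to 0.106 for Nrp2, -0.0996 to 0.596 for Sema3e, -0.313 to 0.0686 for Sema3c, -0.021 to 0.170 for Sema5a and -0.118 to 0.133 for Plxnb3. Sema6d, Nrp1, Sema4f and Sema7a kept an unadjusted p below 0.05 for RvD6si in 15 of 15 fits, and Sema3e in 9.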
